A study of Homo sapiens with 2 samples.

Results

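The genes described here encode the chaperones of the cytosol and the mitochondrion, the co-chaperones that work with HSP90 and HSP70, and the heat shock factors that control many of them. The set held 41 named genes. Its members were found as the probe sets to which the platform annotation gives one of these symbols and no other, which yielded 84 probe sets of 37 genes, out of 19775 genes with such a probe set. No probe set was annotated to AHSA1, HSPA8, TCP1 or HSF2 alone, and these 4 genes are not analysed here. Probe sets with a mean signal over both arrays of 49.1 (the median of all values) or more entered, and the brightest entering probe set stood for a gene. All 37 measured members entered, among 12531 genes. Values under a floor of 13.8 were set to it before ratios were taken.

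The cells were HCC15, an established human lung cancer line whose labelled subtype is squamous. One culture received an siRNA against CTNNB1, which encodes beta-catenin, and the other a control siRNA, so each group was 1 culture. The title of the control sample also carries the word Tax, which the labels do not explain. Both cultures were HCC15 cells grown in RPMI medium with serum, and collection was 48 h after transfection. Each culture was read on 1 biotin-labelled array, so no difference has a replicate check and no p-value was computed.

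Chaperones bind unfolded or partly folded proteins and use cycles of ATP binding to let them fold. HSP70 with its DNAJ partners acts early on many chains, HSP90 acts late on kinases, steroid receptors and other clients, and the chaperonins enclose a chain in a chamber. Under protein stress the transcription factor HSF1 binds heat shock elements and raises the transcription of many of these genes.

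The siRNA target itself was lower after knockdown. The brightest probe set of CTNNB1 (201533_at) read 339 with CTNNB1 siRNA and 1224 with control siRNA, 27.7% of the control, and the other 2 probe sets read 51% and 91.3%. Keratin and adhesion genes of epithelial cells entered (5 of 5 on the list). Of 9 squamous lung markers, SOX2 alone entered (41.6 with CTNNB1 siRNA and 60.1 with control siRNA), KRT5, KRT14, KRT13, DSG3, PKP1 and SERPINB5 had a mean signal under the filter, and KRT6A and TP63 had no single-symbol probe set. On the whole array 12531 of 19775 genes with a single-symbol probe set entered. Of 4 lung adenocarcinoma markers 3 entered (NAPSA, SFTPB and SFTPC), all with signals under 209, the 75th percentile of all values. NKX2-1 lay under the filter, with 7.6 under CTNNB1 siRNA and 20.5 under control siRNA in its brightest probe set. Of 8 leukocyte, endothelial and fibroblast markers 3 entered. The signals of that last list summed to 385 with CTNNB1 siRNA and 434.6 with control siRNA. No entering marker differed by 2-fold, and the part of the markers in the results below was not tested.

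One chaperone gene stood out. FKBP4, the HSP90 co-chaperone also called FKBP52, was 3.72-fold higher with CTNNB1 siRNA, and none of the other 36 measured members reached a 2-fold difference in either direction. The 36 had log2 ratios (CTNNB1 siRNA over control siRNA) from -0.25 for the small heat shock protein gene HSPB8 to 0.63 for the HSP90 co-chaperone gene CHORDC1. Thus 1 of 37 members was at least 2-fold higher, against 2.29% of all genes, and 0 of 37 were at least 2-fold lower, against 2.38% of all genes. The members' shares lie near these backgrounds. A lower level per cell and fewer cells carrying a transcript cannot be told apart in such bulk RNA.

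The set as a whole sat slightly above 0, and so did bright genes in general. The median log2 ratio of the 37 members was 0.30, a factor of 1.23, against 0.15 over all 12531 genes, and 29 members lay above that all-gene median. However, 34 of the 37 members lay in the 3 brightest deciles of mean signal, and the 3759 genes of those deciles had a median log2 ratio of 0.26. Relative to the median of its own signal decile, the median member stood at 0.03, with 25 members above and 12 below. The pooled SD between probe sets of the same gene was 0.42 over all entering probe sets, and 0.29 over those above the 75th percentile of signal, where the probe sets standing for the 37 members lie. The ratio of 32 members differed from its decile's median by less than 0.29. The 5 exceptions were FKBP4 (1.62), STUB1 (-0.51), HSPB8 (-0.50), HSPA2 (-0.41) and CHORDC1 (0.36), of which the first 3 also differed by more than 0.42.

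**Figure D1:**
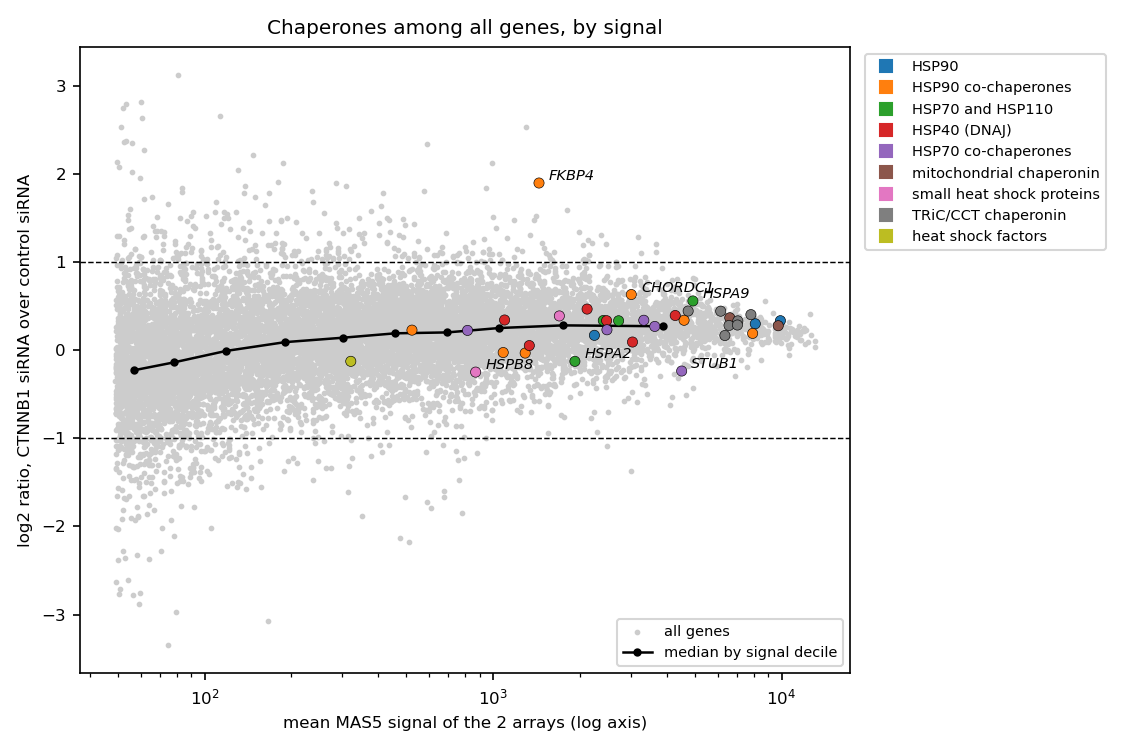
Log2 ratio of CTNNB1 siRNA over control siRNA (vertical axis) against the mean MAS5 signal of the 2 arrays (horizontal, log axis) for 12531 genes in grey and the 37 members coloured by role, with the median of each signal decile as a black line and the 2-fold rule dashed. The members follow the line at the bright end, and FKBP4, with a log2 ratio of 1.90, lies apart from them.

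The log2 ratios of the 37 members had an SD of 0.34, against 0.30 over the genes of the 3 brightest deciles and 0.48 over all genes. Without FKBP4 the members' SD was 0.21, a value not set against the others, since those keep their own extreme genes. Within those 3 deciles 1.3% of genes were at least 2-fold higher and 0.106% at least 2-fold lower.

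**Figure D2:**
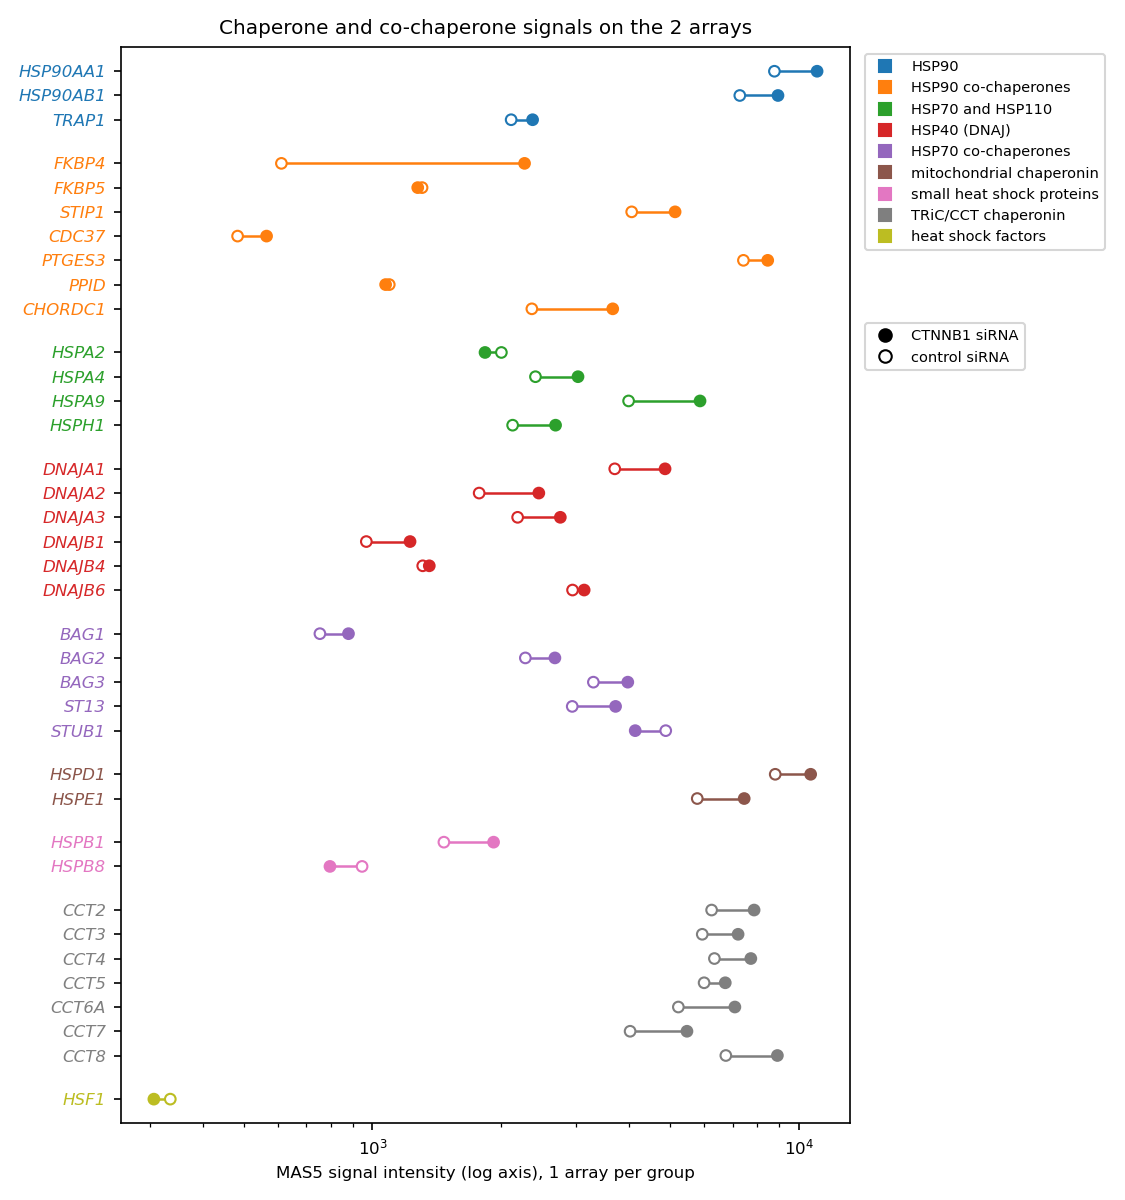
MAS5 signal (horizontal, log axis) of the probe set that stands for each of the 37 members on the CTNNB1 siRNA array (filled) and the control siRNA array (open), 1 array each, in rows grouped and coloured by role. The filled point lies to the right of the open one in 31 rows and to the left in 6, and the gap is widest for FKBP4 (2275 with CTNNB1 siRNA and 611.5 with control siRNA); positions of different genes are not comparable, since each probe set has its own brightness.

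Matches to the letters of the heat shock element lie upstream of several members. Their sequences are shown here because HSF1 acts through such letters. RefSeq windows of 250 bases before a transcript start (GRCh38.p14) were at hand for 36 of the 41 genes, in 49 windows, and the 5 genes without one were HSF1, FKBP4, ST13, CCT6A and STUB1. A run of 3 inverted units, GAANNTTCNNGAA on either strand, was found in 6 of the 49 windows (12.2%) and in 155 of all 35116 windows (0.441%). The 6 genes were HSP90AA1, HSP90AB1, CHORDC1, HSPD1, DNAJB6 and HSPA8, of which the first 5 have values here. Their windows follow, each read 5′ to 3′ on the gene's strand, with the matching bases in capitals:
HSP90AA1 (chr14:102087045-102087294, - strand): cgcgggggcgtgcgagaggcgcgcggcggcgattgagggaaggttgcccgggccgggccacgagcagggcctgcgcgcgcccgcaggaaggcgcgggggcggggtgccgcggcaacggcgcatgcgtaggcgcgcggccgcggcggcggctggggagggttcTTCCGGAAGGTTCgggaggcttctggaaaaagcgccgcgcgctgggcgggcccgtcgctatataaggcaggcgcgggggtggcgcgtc
HSP90AB1 (chr6:44247693-44247942, + strand): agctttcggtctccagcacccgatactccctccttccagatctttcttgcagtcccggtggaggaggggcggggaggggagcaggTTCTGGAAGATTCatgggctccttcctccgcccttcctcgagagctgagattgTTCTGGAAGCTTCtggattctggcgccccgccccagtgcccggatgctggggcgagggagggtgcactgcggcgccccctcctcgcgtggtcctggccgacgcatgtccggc
CHORDC1 (chr11:90223050-90223299, - strand): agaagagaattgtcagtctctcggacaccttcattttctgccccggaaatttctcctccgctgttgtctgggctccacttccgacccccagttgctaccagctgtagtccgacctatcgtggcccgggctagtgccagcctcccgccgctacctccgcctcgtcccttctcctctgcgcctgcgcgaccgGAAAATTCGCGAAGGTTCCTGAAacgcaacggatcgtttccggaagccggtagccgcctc
HSPD1 (chr2:197499841-197500090, - strand): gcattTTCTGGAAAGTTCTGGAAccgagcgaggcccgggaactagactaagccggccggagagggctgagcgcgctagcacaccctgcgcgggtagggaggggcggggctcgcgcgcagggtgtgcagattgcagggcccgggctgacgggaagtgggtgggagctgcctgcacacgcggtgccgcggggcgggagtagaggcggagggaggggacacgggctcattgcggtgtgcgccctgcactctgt
DNAJB6 (chr7:157336754-157337003, + strand): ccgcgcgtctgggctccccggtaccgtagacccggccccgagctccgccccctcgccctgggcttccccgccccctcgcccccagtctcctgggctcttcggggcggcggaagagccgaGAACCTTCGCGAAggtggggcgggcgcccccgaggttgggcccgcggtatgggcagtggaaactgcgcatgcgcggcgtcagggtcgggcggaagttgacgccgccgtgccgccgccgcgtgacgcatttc

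In the CHORDC1 window 3 overlapping matches form 1 run, from 60 to 38 bases before the start (-60 to -38). HSP90AB1 has 2 separate runs, HSPD1 has 2 overlapping matches in 1 run at the far end of the window of one of its starts, and HSP90AA1 and DNAJB6 have 1 match each. The log2 ratios of these 5 genes were 0.63 for CHORDC1, 0.33 for HSP90AA1, 0.30 for HSP90AB1, 0.28 for HSPD1 and 0.09 for DNAJB6. The shorter pairs of units were more common, with GAANNTTC in 13 of the member windows (26.5%) against 5.78% of all windows, and TTCNNGAA in 7 (14.3%) against 6.62%; each is part of the longer motif. The letters CTTTGAT, a form of the site bound by the TCF/LEF partners of beta-catenin, were found in 0 of the 49 member windows and in 2.26% of all windows. The form CTTTGAA was found upstream of BAG2 and PPID (3.8% of all windows). A match is a stretch of letters and not a measured binding site.

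HSP90 itself comes as a stress-inducible cytosolic form (HSP90AA1), a constitutive cytosolic form (HSP90AB1) and a mitochondrial form (TRAP1). All 3 were above 0 and under 2-fold, although TRAP1 turned below 0 in 3 of the 9 alternative settings. HSP90AA1, whose motif match is printed above, read 11049 with CTNNB1 siRNA and 8774 with control siRNA in its brightest probe set (211969_at). In HSP90AA1 that probe set had a log2 ratio of 0.33. Its second (210211_s_at) read 10653 with CTNNB1 siRNA and 8934 with control siRNA, and the third (214328_s_at) read 9761 with CTNNB1 siRNA and 8632 with control siRNA. The dimmest (211968_s_at) read 9336 with CTNNB1 siRNA and 7572 with control siRNA. The log2 ratios of the 4 HSP90AA1 probe sets ran from 0.18 to 0.33.

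HSP90AB1 was less uniform. Its brightest probe set (200064_at) read 8945 with CTNNB1 siRNA and 7278 with control siRNA, a log2 ratio of 0.30. The second (214359_s_at) read 8651 with CTNNB1 siRNA and 5467 with control siRNA, and the third (1557910_at) read 5593 with CTNNB1 siRNA and 2732 with control siRNA, with log2 ratios of 0.66 and 1.03. The third is 1 of 3 entering member probe sets past 2-fold upward, out of 75, against 3.42% of all entering probe sets with 1 symbol. The other 2 belong to FKBP4. HSP90 genes are close in sequence, and probe sets whose names end in _s_at or _x_at can take signal from related transcripts. Of the HSP90AB1 probe sets, 214359_s_at has such a name, and 200064_at and 1557910_at do not. TRAP1 read 2376 with CTNNB1 siRNA and 2116 with control siRNA (0.17), and its second probe set was under the floor on both arrays.

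The HSP90 co-chaperones held the highest ratio of the set and 2 of the 6 ratios below 0. FKBP4 is an immunophilin with a peptidyl-prolyl isomerase domain that binds the tail of HSP90 and promotes steroid receptor activity. Its brightest probe set (200895_s_at) read 2275 with CTNNB1 siRNA and 611.5 with control siRNA, a log2 ratio of 1.90. The second entering probe set (200894_s_at) read 530.5 with CTNNB1 siRNA and 252.2 with control siRNA, 210% of the control. Both dim FKBP4 probe sets under the signal filter pointed the same way. The first of them (1560305_x_at) read 55.5 with CTNNB1 siRNA and 25.2 with control siRNA, and the second (1560303_at) read 45.2 with CTNNB1 siRNA and 31.7 with control siRNA.

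FKBP4 therefore read higher on the CTNNB1 siRNA array in 4 of 4 probe sets, with log2 ratios of 1.90, 1.07, 1.14 and 0.51. The size differed between them by more than the probe set SD of 0.42, so the fold is known only roughly. All FKBP4 probe sets but 1560303_at have names ending in _s_at or _x_at, and signal from related transcripts was not tested. FKBP4 ranked 23 of 12531 genes by log2 ratio and 1 of the 1253 genes in its own signal decile.

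FKBP5, also called FKBP51, is the closest relative of FKBP4 on HSP90 and opposes it at the glucocorticoid receptor. Its values were close to level in the brighter probe sets. The brightest of FKBP5 probe set (224840_at) read 1277 with CTNNB1 siRNA and 1308 with control siRNA, a log2 ratio of -0.03, and a second (224856_at) read 638.9 with CTNNB1 siRNA and 587.7 with control siRNA (0.12). A dim probe set of FKBP5 (204560_at) read 67.5 with CTNNB1 siRNA and 34.1 with control siRNA, a log2 ratio of 0.99 just under the rule. The dim FKBP5 probe set thus disagreed with the bright ones. PPID, the cyclophilin that binds the same tail of HSP90, had 1074 under CTNNB1 siRNA and 1095 under control siRNA (-0.03). Its second probe set read 586.6 with CTNNB1 siRNA and 547.3 with control siRNA, and the third (228469_at), under the filter, read 33 with CTNNB1 siRNA and 62.5 with control siRNA.

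CHORDC1, a zinc-binding co-chaperone also called morgana, had the second highest ratio of the set in the deposited scaling. Its main probe set (218566_s_at) read 3663 with CTNNB1 siRNA and 2366 with control siRNA, a log2 ratio of 0.63, which is 0.36 above its decile's median. A dim CHORDC1 probe set under the filter (239436_at) went the other way, with 32.3 under CTNNB1 siRNA and 49.3 under control siRNA. STIP1, the adaptor that hands clients over to HSP90 from HSP70, read 5131 with CTNNB1 siRNA and 4058 with control siRNA (0.34), and its second probe set had a log2 ratio of 0.62. CDC37, which brings kinases to HSP90, had a log2 ratio of 0.23 (564.4 with CTNNB1 siRNA, 482.6 with control siRNA). PTGES3, the co-chaperone p23 that holds HSP90 in its closed state, had 0.19 (8462 with CTNNB1 siRNA and 7421 with control siRNA). Over the 7 measured co-chaperones the median was 0.23, and 4 of them lay above the median of their own decile.

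**Figure D3:**
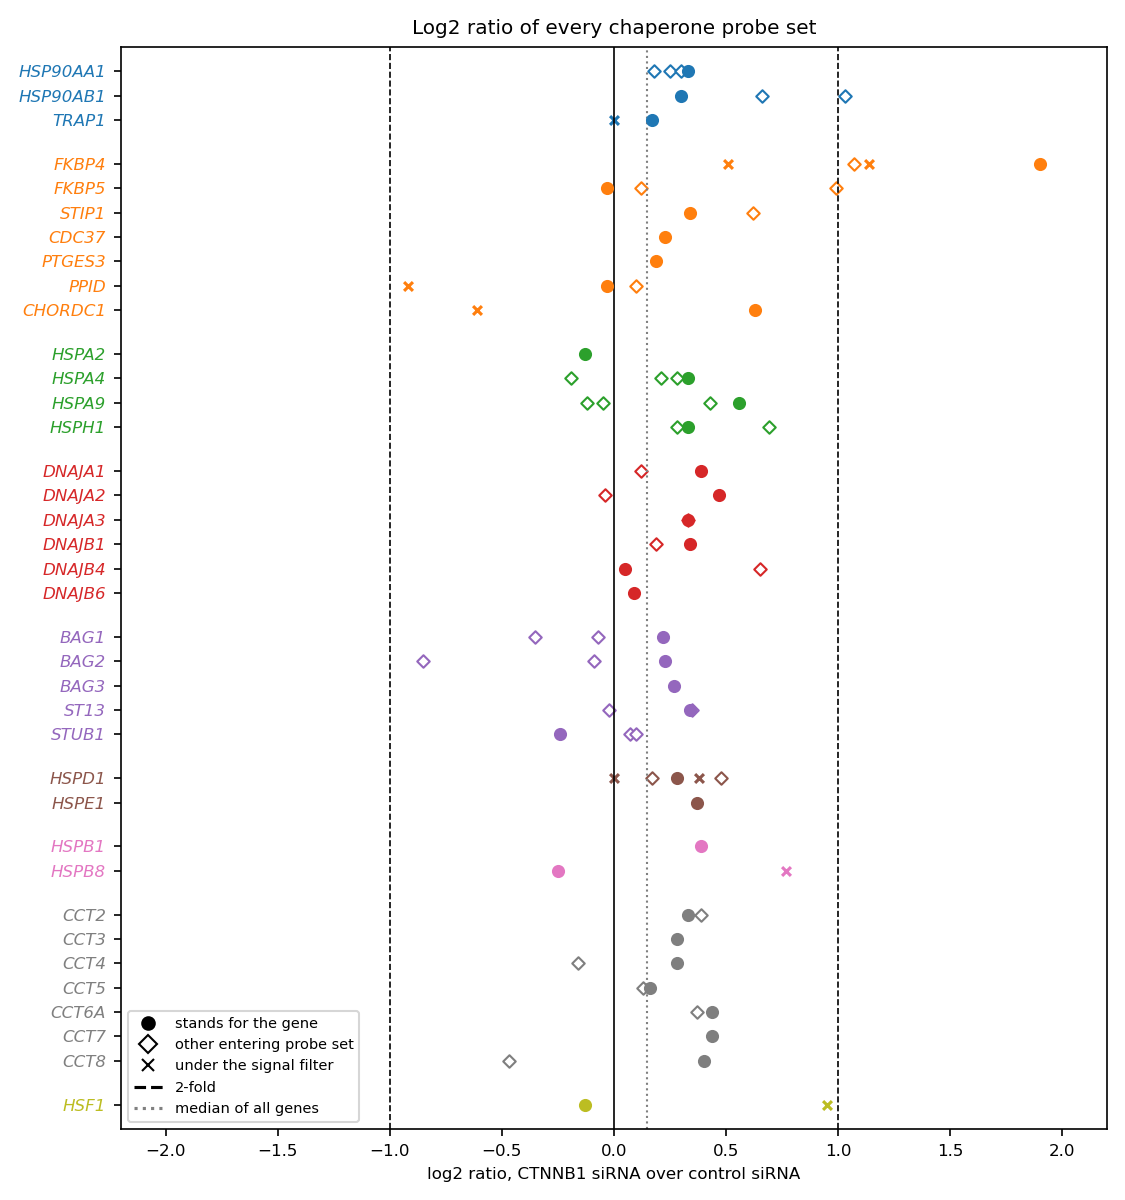
Log2 ratio (horizontal axis) of each of the 84 member probe sets, in rows by gene and coloured by role: filled circles stand for the gene, open diamonds are its other entering probe sets, crosses lie under the signal filter, dashed lines mark 2-fold and the dotted line the all-gene median of 0.15. Only FKBP4 has its standing probe set past a dashed line, and BAG2 and FKBP5 have entering probe sets more than 1 apart.

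Ratios in the HSP70 group ran from -0.13 to 0.56. HSPA9, the mitochondrial HSP70 also called mortalin, read 5871 with CTNNB1 siRNA and 3991 with control siRNA in its brightest probe set (200691_s_at), a log2 ratio of 0.56. A second HSPA9 probe set (200692_s_at) had 4457 with CTNNB1 siRNA and 3305 with control siRNA (0.43). Its 2 dimmer ones, 200690_at (1363 with CTNNB1 siRNA and 1411 with control siRNA) and 232200_at (61 with CTNNB1 siRNA and 66.2 with control siRNA), were close to level. The HSPA9 ratio therefore depends on the probe set.

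HSPH1, an HSP110 that exchanges the nucleotide of HSP70, read 2690 with CTNNB1 siRNA and 2133 with control siRNA (206976_s_at, 0.33), 1052 with CTNNB1 siRNA and 654.2 with control siRNA in a second probe set (208744_x_at, 0.69), and 142.1 with CTNNB1 siRNA and 116.9 with control siRNA in the third (235573_at, 0.28). All 3 HSPH1 probe sets were higher with CTNNB1 siRNA. HSPA4, another HSP110, had a log2 ratio of 0.33, with -0.19 in its dimmest probe set. HSPA2, an HSP70 first known from the testis, was lower, with 1837 under CTNNB1 siRNA and 2007 under control siRNA (-0.13), which is -0.41 relative to its decile. Over the settings the HSPA2 ratio ran from -0.41 to 0.01. It was above 0 in 1 alternative only, with both arrays scaled to a common median.

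DNAJ proteins bring clients to HSP70 and trigger its ATPase. All 6 DNAJ members had log2 ratios above 0, from 0.05 to 0.47, with a median of 0.34, although DNAJB4 and DNAJB6 each turned below 0 in 4 of the 9 alternative settings. DNAJA2 had the highest, reading 2457 with CTNNB1 siRNA and 1780 with control siRNA (209157_at), but its second probe set (226994_at) was level at 1510 with CTNNB1 siRNA and 1549 with control siRNA. DNAJA1 followed with 4860 under CTNNB1 siRNA and 3703 under control siRNA (0.39), and 1971 with CTNNB1 siRNA and 1809 with control siRNA in its second probe set. DNAJB1, a heat-inducible partner of HSP70, had 0.34, and the mitochondrial DNAJA3 had 0.33 in both of its probe sets. DNAJB6, which suppresses aggregation, had 0.09, and DNAJB4 had 0.05, although the second DNAJB4 probe set had 0.65.

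Among the HSP70 co-chaperones, ST13, which stabilises the ADP-bound state, read 3720 with CTNNB1 siRNA and 2943 with control siRNA (207040_s_at, 0.34). Its other probe sets read 1486 with CTNNB1 siRNA and 1509 with control siRNA (208667_s_at) and 1241 with CTNNB1 siRNA and 970.6 with control siRNA (208666_s_at). BAG3, a stress-induced nucleotide exchange factor that links HSP70 to autophagy, read 3974 with CTNNB1 siRNA and 3299 with control siRNA (0.27), equal to its decile's median. BAG1 and BAG2, exchange factors of the same family, had 0.22 and 0.23 in their brightest probe sets.

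The probe sets of both disagreed. The other 2 of BAG1 had log2 ratios of -0.35 and -0.07, and the BAG1 ratio turned below 0 in 3 of the 9 alternative settings. The brightest of BAG2 (209406_at) read 2680 with CTNNB1 siRNA and 2285 with control siRNA, the next (230879_at) 203.4 with CTNNB1 siRNA and 216.5 with control siRNA, and the dimmest (230750_at) 62.6 with CTNNB1 siRNA and 113 with control siRNA, log2 ratios of 0.23, -0.09 and -0.85. STUB1, the ubiquitin ligase CHIP that marks chaperone clients for the proteasome, was among the lowest members. Its brightest probe set read 4136 with CTNNB1 siRNA and 4878 with control siRNA (-0.24), while its other 2 had log2 ratios of 0.07 and 0.10, and the median over the 3 was 0.07.

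The chaperonin subunits had ratios under 2-fold in each of their probe sets. The mitochondrial chaperonin HSPD1 read 10672 with CTNNB1 siRNA and 8813 with control siRNA in its brightest probe set (200807_s_at, 0.28), and 9406 with CTNNB1 siRNA and 6732 with control siRNA in the next (200806_s_at, 0.48). Another HSPD1 probe set (243372_at) read 211.9 with CTNNB1 siRNA and 188.7 with control siRNA. Under the filter, 243845_at read 28.7 with CTNNB1 siRNA and 22 with control siRNA and 241716_at lay under the floor on both arrays. Its co-chaperonin HSPE1, the lid of the chamber, read 7453 with CTNNB1 siRNA and 5783 with control siRNA (0.37). These genes lie head to head, and the HSPE1 window shares 104 bases with the window of another HSPD1 start. Their ratios differed by 0.09.

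TRiC, also called CCT, is the cytosolic chaperonin that folds actin and tubulin, and its subunits form rings of fixed composition. In their brightest probe sets all 7 measured subunits had log2 ratios above the all-gene median, in a range from 0.16 for CCT5, which turned below 0 in 3 of the 9 alternative settings, to 0.44 for CCT7 and CCT6A. CCT8 turned below 0 in 1 setting. CCT7 read 5470 with CTNNB1 siRNA and 4023 with control siRNA (200812_at), and CCT6A read 7086 with CTNNB1 siRNA and 5222 with control siRNA (201327_s_at) and 5369 with CTNNB1 siRNA and 4147 with control siRNA (201326_at). CCT8 had 0.40, CCT2 0.33, CCT4 0.28 and CCT3 0.28. The SD over the 7 subunits was 0.10, against 0.24 over all genes of the brightest decile, in which all 7 lie and which keeps its extreme genes. A narrow spread was not particular to TRiC. The SD was 0.06 for the mitochondrial chaperonin and 0.09 for HSP90, and up to 0.67 in the other role groups. With the median over each gene's probe sets the TRiC SD was larger, 0.18, against 0.09 for the DNAJ genes. The subunits then ran from -0.03 (CCT8) to 0.44 (CCT7). The subunits' median by brightest probe set, 0.33, was 0.06 above their decile's median. Dim second probe sets of CCT8 (210436_at, 46.8 with CTNNB1 siRNA and 64.8 with control siRNA) and CCT4 (227171_at, 202.8 with CTNNB1 siRNA and 227 with control siRNA) pointed downward.

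The small heat shock proteins hold unfolded proteins without ATP, and the pair measured here went opposite ways. HSPB1, also called HSP27, read 1924 with CTNNB1 siRNA and 1471 with control siRNA (0.39). HSPB8, which works with BAG3, read 794.9 with CTNNB1 siRNA and 945.6 with control siRNA (221667_s_at, -0.25), and a dim HSPB8 probe set under the filter (233057_at) read 55 with CTNNB1 siRNA and 32.2 with control siRNA. The HSPB1 ratio exceeded the SD of 0.29 among bright probe sets and not the 0.42 over all of them, and stood 0.11 above its decile's median. The HSPB8 ratio was smaller in size than either SD, but relative to its decile's median it was -0.50, larger in size than both.

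HSF1, the main heat shock factor, had 1 entering probe set (202344_at), which read 307 with CTNNB1 siRNA and 335.5 with control siRNA. Its log2 ratio was -0.13, and ran from -0.31 to 0.01 over the settings. It was above 0 in 1 alternative only, with both arrays scaled to a common median. A dim HSF1 probe set under the filter (213756_s_at) read 26.6 with CTNNB1 siRNA and 11.5 with control siRNA, and the second value is under the floor. The signal of a transcription factor's gene does not measure its activity.

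Across genes the ratio moved with signal. The median log2 ratio of all genes ran from -0.23 in the dimmest signal decile to 0.27 in the brightest. Within genes this was less clear. Of the 24 members with several entering probe sets, the dimmest had a lower log2 ratio than the brightest in 16 (66.7%), as it did in 54.2% of the 5791 such genes on the whole array, a share not far above an even split.

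None of the genes on 6 further lists from the same pathways was 2-fold changed. Of 19 further HSP90 co-chaperone genes 17 entered, with a median log2 ratio of 0.37 and a median of 0.15 relative to their deciles. The highest was FNIP1, which slows the ATPase of HSP90 (1061 with CTNNB1 siRNA, 619.2 with control siRNA, 0.78), followed by the myosin chaperone UNC45A (0.62), RUVBL2 of the R2TP complex (0.55, with -0.10 in another probe set) and SGTA (0.54). Of 18 further HSP70 system genes 15 entered, with a median of 0.26, or 0.02 relative to their deciles. DNAJC2, a ribosome-associated DNAJ, came closest to 2-fold at 0.96 (3292 with CTNNB1 siRNA, 1698 with control siRNA), and the inducible HSPA6 had -0.66 from dim signals (38.1 with CTNNB1 siRNA and 60.3 with control siRNA). DNAJC8 had 0.60, with -0.51 in another of its 3 entering probe sets, and DNAJC9 had 0.42. HSPA1A and HSPA1B, the main stress-inducible HSP70 genes, had no single-symbol probe set.

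Of 12 further mitochondrial folding and protease genes 11 entered, with a median of 0.35, or 0.09 relative to their deciles. The largest ratios were in LONP1 (0.54), YME1L1 (0.51), the HSPA9 exchange factor GRPEL1 (0.50) and CLPX (0.46). The 6 entering probe sets of YME1L1 ran from -0.98, just under 2-fold lower, to 0.64. Of 16 prefoldin and chaperonin cofactor genes 14 entered, with a median of 0.32, or 0.05 relative to their deciles. That list was led by PDCL (0.74, with -0.02 in its other probe set), the prefoldin subunits PFDN1 (0.61) and PFDN2 (0.57), and URI1 (0.49). Of 6 further small heat shock protein genes CRYAB alone entered and had -0.64 (245.2 with CTNNB1 siRNA, 381.4 with control siRNA). HSPB8 and CRYAB thus both read lower with CTNNB1 siRNA and HSPB1 higher, each by less than 2-fold.

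FKBP4 and FKBP5 act on the glucocorticoid receptor, so its gene and a list of its target genes were read as well. FKBP5 itself is not on that list. Of the 12 on the list 9 entered, with a median of 0.38, or 0.12 relative to their deciles, and none past 2-fold. The receptor gene NR3C1 had 0.44 (1923 with CTNNB1 siRNA, 1419 with control siRNA), and was picked with its value already seen, since the naming rule does not reach it. Of the 8 entering targets 4 lay above 0 and 4 below, with a median of 0.18 without the receptor gene. The highest were SGK1 (0.70), DUSP1 (0.58, with -0.15 in its other entering probe set) and the metallothionein MT2A (0.56), and the lowest were KLF9 (-0.73) and TSC22D3 (-0.55). TSC22D3 was also picked after its value was seen.

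The 2-fold call of FKBP4, and the count of 0 for other calls among the members, held in all 9 alternative settings. The other floor and the 2 other filters could not change this. The probe sets standing for the 37 members lie above the 75th percentile of signal, so those settings left each member's value as it was. The log2 ratio of FKBP4 ranged from 1.48 (median over probe sets) to 2.03 (both arrays scaled to a common median). The sign of the small ratios was less stable. Between settings 14 of the 37 members changed sign at least once, among them PTGES3, TRAP1, CCT5, DNAJB6, BAG1, BAG2, FKBP5 and STUB1, and 23 kept it.

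**Figure D4:**
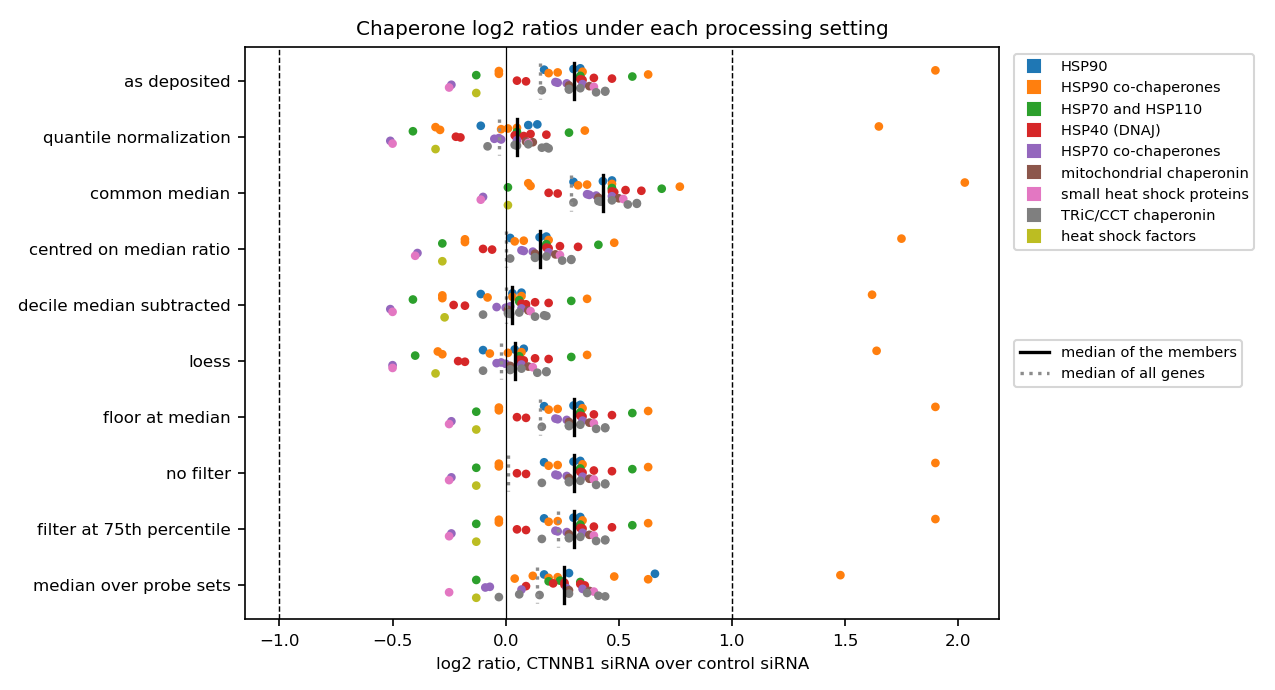
Log2 ratios (horizontal axis) of the 37 members, coloured by role, under the deposited scaling and the 9 alternative settings (rows), with the members' median as a black bar and the all-gene median as a dotted grey bar. The black bar lies between 0.03 and 0.43, and FKBP4 is the single point beyond the dashed 2-fold line in each row.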

How the data were processed

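The deposited values are linear signal intensities, 1 for each of 54675 probe sets on 2 arrays. Per the submitters' processing notes the authors made them with MAS5, whose version and scaling target are not stated there. Detection calls and a genome build were not given in the sources used here. GEO's platform annotation gave 41097 probe sets 1 symbol and 1801 several, and left 11777 unlisted. Symbols were updated through Entrez numbers to RefSeq names (41043 matched).

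Signals under the 25th percentile of both arrays, 13.8, were set to it. Probe sets entered at a mean signal of at least 49.1, the median of all values. A gene was represented by the brightest of its entering probe sets. Log2 ratios took CTNNB1 siRNA over control siRNA without added normalization, and a call was a difference of at least 2-fold. With 1 array per group there was no test. The error given is the pooled SD between entering probe sets of a gene, 0.42 over 5791 genes (0.29 for probe sets above the 75th percentile of signal); it leaves out culture-to-culture variation. Having 1 array a group is what limits precision.

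All members were accounted for. All probe sets were given for CTNNB1, called members, the 2 members of each role with the largest absolute ratio and members whose probe sets differed by over 1, and for other lists up to 4 genes with the largest absolute ratio. The members and lists were chosen with earlier results of these data known. The steps were tested on simulated data in which only bright genes changed, alike in all their probe sets, with noise that did not vary with signal. That test therefore does not cover dim genes, probe sets that disagree or ratios that move with signal. Python 3.11.15, numpy 2.4.6, pandas 2.3.3, statsmodels 0.14.6 and matplotlib 3.10.9 were used.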

Additional observations from a re-analysis of the deposited data

How the results depend on the processing

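The alternatives were 5 other scalings, another floor, 2 other filters and the median over probe sets. In all 9, FKBP4 was the 1 member at least 2-fold higher and 0 members were at least 2-fold lower. The floor and filter settings could not change this, since they left each member's value as it was. The members' median log2 ratio, 0.30 as deposited, was 0.05 after quantile normalization, 0.43 with both arrays scaled to a common median, 0.15 after centring on the all-gene median, 0.03 after subtracting each signal decile's median and 0.04 after loess. In the same settings the all-gene median was -0.03, 0.29, 0.00, 0.00 and -0.02. A common median and centring shift all genes alike, so they could hardly change the gap of 0.15 seen as deposited. The members' median lay above the all-gene median by 0.08 after quantile normalization, 0.03 after subtracting decile medians and 0.06 after loess. Members above the all-gene median numbered 29 as deposited and from 24 to 31 otherwise.

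Of 333 member values under alternatives, 1 moved by more than the probe set SD, that of CCT8 (0.40 as deposited, -0.03 with the median over its probe sets). Many of the 333 could not move so far. The floor and filter settings left each member's value as it was, since all 37 members lie above the 75th percentile of signal. Centring and the common median shifted all members alike, by less than that SD. Counts of calls among all genes also changed between settings, a measure that cannot be set against shifts of single ratios. Genes at least 2-fold higher numbered 287 as deposited, 472 with a common median, 163 after centring, 721 with no filter and 139 with the filter at the 75th percentile. Genes at least 2-fold lower numbered 298, 183, 448, 1271 and 34 in those settings and 160 with the floor at the median. Calls rest on 1 array per group, and dim probe sets, with signals near the floor of 13.8, have no detection call. No paired analysis was possible because each group is 1 sample and no test was run.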
